A study of Arabidopsis thaliana with 12 samples.

Results

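This account covers 55 genes whose transcripts were clearly lower in paraquat-treated plants of Arabidopsis thaliana than in water-treated plants. They were taken from an array of 3439 probes, of which 692 list a single gene and 636 of those had no value of 0 in any sample. Of these 636 probes, 129 (20.3%) had every paraquat value below every water value, and 62 (9.75%) also had a difference of mean log2 intensity of -1 or less. Among those 62, PRK, AT2G04700, GLDH, CHL, LPA19, LpxA and AT4G14050 were set aside by name, which leaves 55 genes with 1 probe each. The members were thus chosen by the paraquat and water values themselves, so their differences are given as a description with no test.

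The data came from 12 samples of total RNA of wild-type plants of the Landsberg ecotype, 6 given 50 µM paraquat and 6 given water, all of them kept in the dark for 12 h and sampled 30 min after light returned. The labels give no organ, age or number of plants, and they number the samples 1 to 6 in each group without saying whether the numbers stand for separate plants or repeated readings. Any p-value below therefore reflects sample-to-sample spread alone, and that spread may be technical. The values are array intensities that the authors had scaled before deposit, quantile normalised here across the 12 samples; their precision is limited by the 12 samples, since arrays have no read depth.

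Paraquat is a bipyridinium herbicide that is reduced at photosystem I in illuminated chloroplasts and then reacts with oxygen, so that superoxide and hydrogen peroxide form in the plastid. Chloroplasts keep a set of peroxide-removing enzymes and thiol regulators that draw on the same electrons. Most proteins of the chloroplast are encoded in the nucleus, and their transcripts are known to respond to light and to the redox state of the plastid. The RefSeq table gives a name beyond the locus identifier to 7 of the 55 members. Roles stated for the others are background knowledge of the protein family, and 17 members are listed by locus alone.

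Differences are given on the log2 scale as paraquat minus water, with the standard error from both groups' spread (SE, n = 6 per group). The SE treats the samples of a group as independent and leaves out any pairing by sample number, neither of which the labels settle. Across the 55 genes they ran from -2.29 to -1.001, with a median of -1.35, against a median of 0.04 over all 636 probes. A single gene was at least 4-fold lower and 11 were at least 3-fold lower. The gap between the highest paraquat sample and the lowest water sample had a median of 0.63 on the log2 scale. In 4 members the mean deposited intensity under paraquat lay under 0.118, the 5th percentile of all deposited values above 0, so the size of their differences rests on dim signals. A smaller amount of a transcript per cell and a smaller share of cells that carry it cannot be told apart in such RNA.

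**Figure D1:**
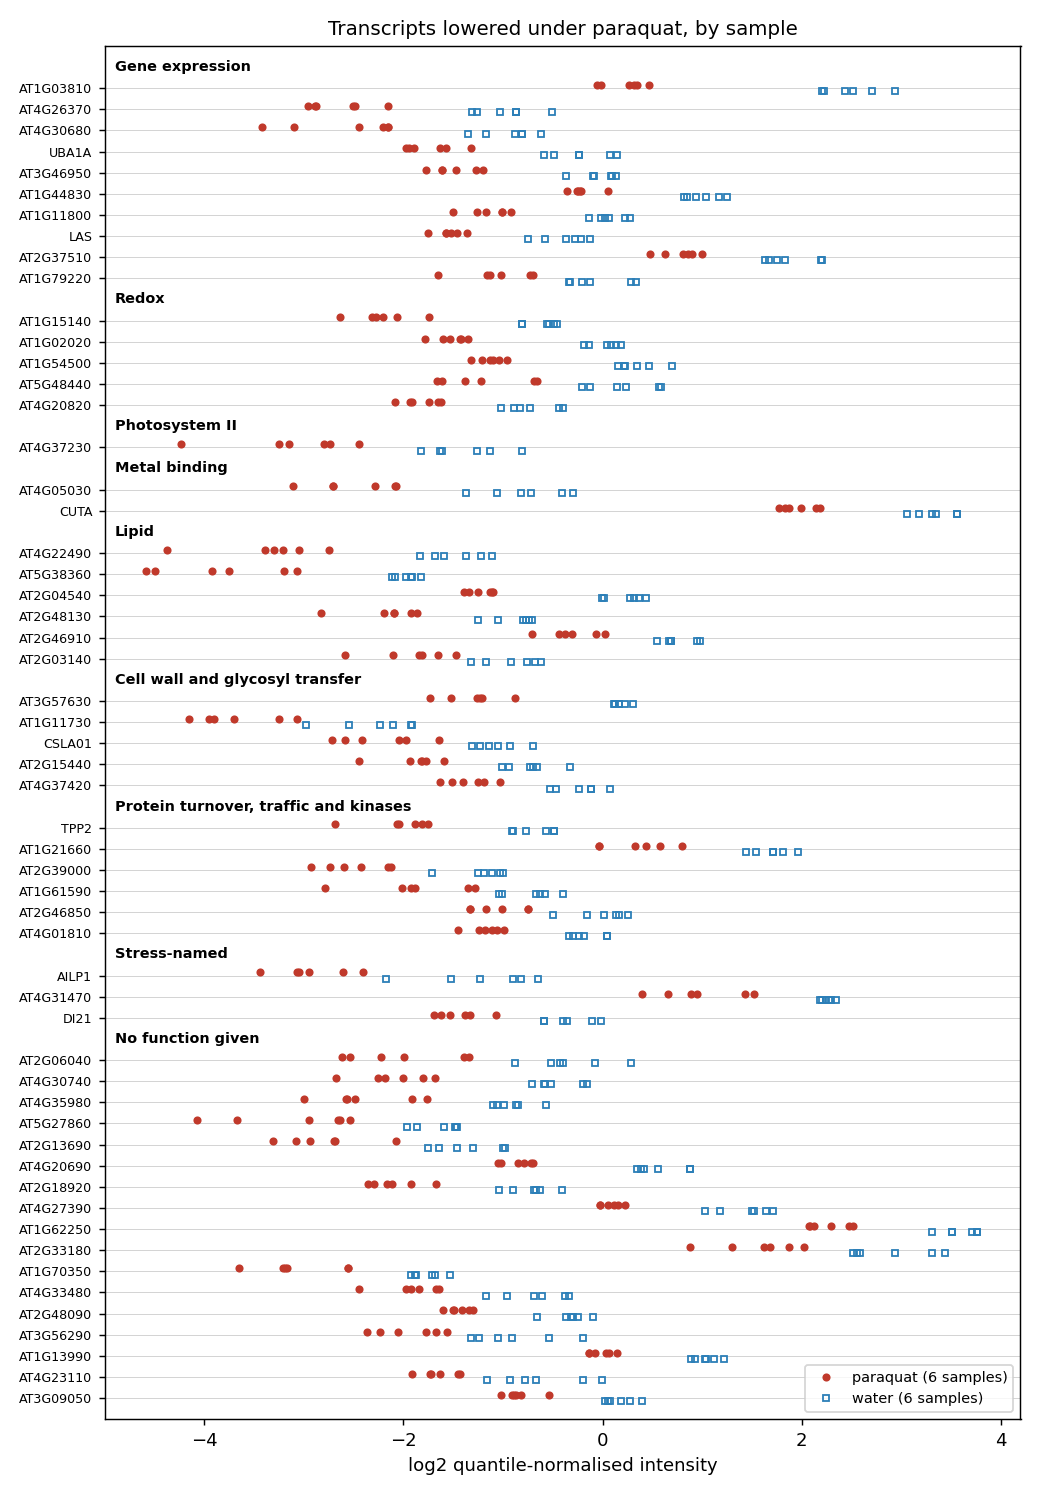
Log2 quantile-normalised intensity of the 55 genes in each sample, by function group; filled circles are the 6 paraquat samples and open squares the 6 water samples. In every row the circles lie left of the squares, as the choice of the genes requires, and the gap is widest for AT1G03810 and narrowest for AT1G11730 and AT2G03140.

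The largest group by known role, 10 genes, acts in gene expression. AT1G03810, a nucleic acid-binding protein with an OB fold, had the largest difference of all members. Its normalised intensity was 0.962 at the lowest, 1.22 at the median and 1.38 at the highest under paraquat, against 4.63, 5.57 and 7.68 under water. The lowest water sample was thus more than 3 times the highest paraquat sample. The difference was -2.29 ± 0.14 (SE), a 4.88-fold lower level under paraquat.

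AT4G26370 carries a NusB domain, which in bacteria belongs to a factor of transcription antitermination. Its normalised intensity was 0.128, 0.156 and 0.224 (lowest, median and highest) under paraquat, against 0.403, 0.518 and 0.702 under water, a difference of -1.67 ± 0.18. AT4G30680, with the MA3 domain found in the translation initiation factor eIF4G, had 0.0931, 0.200 and 0.225 under paraquat, against 0.391, 0.557 and 0.651 under water, a difference of -1.64 ± 0.25. For both genes even the highest paraquat sample stayed well under the lowest water sample.

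The other members of this group differed by less. UBA1A, an RNA-binding protein that associates with the oligouridylate-binding protein UBP1, was at -1.501, and AT2G37510, a protein with an RNA recognition motif, at -1.10. The mTERF family, which in plants acts on RNA of plastids and mitochondria, had AT3G46950 at -1.45 and AT1G79220 at -1.001. AT1G79220 was among the genes that met the size limit by the least. Among transcription factors, AT1G44830 of the AP2/ERF family was at -1.22 and LAS, the GRAS protein Lateral Suppressor that is needed for axillary shoots, at -1.16. AT1G11800, of the endonuclease/exonuclease/phosphatase family, was at -1.22.

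The members include 5 genes of oxidoreductases and electron carriers. AT1G15140, an FAD- and NAD(P)-binding oxidoreductase, had 0.161, 0.212 and 0.298 (lowest, median and highest normalised intensity) under paraquat, against 0.570, 0.686 and 0.728 under water, a difference of -1.60 ± 0.14. AT1G02020, of the nitroreductase family, had 0.291, 0.358 and 0.391 under paraquat, against 0.881, 1.05 and 1.14 under water, a difference of -1.54 ± 0.09. The rubredoxin-like gene AT1G54500 had 0.399, 0.462 and 0.514 under paraquat, against 1.12, 1.22 and 1.62 under water, a difference of -1.48 ± 0.10. In AT1G02020 and AT1G54500 the gap between the groups was more than 1 log2 unit, at 1.17 and 1.12, and both had small standard errors. AT5G48440, an FAD-dependent oxidoreductase, was at -1.40 ± 0.23, and AT4G20820, of the berberine bridge enzyme family, at -1.11 ± 0.13.

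AT4G37230 is a member of the PsbO family, whose leading members stabilise the manganese cluster of photosystem II. Its normalised intensity was 0.0529, 0.128 and 0.184 under paraquat, against 0.283, 0.372 and 0.572 under water (lowest, median and highest). The groups did not overlap, but the paraquat signal was close to the dim end of the array, with a deposited mean of 0.118. The difference was -1.73 ± 0.30, the widest standard error among the members.

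Both metal-related members are linked to copper by their families. CUTA, a plastid homologue of the bacterial copper tolerance protein CutA, had 3.43, 3.82 and 4.55 under paraquat, against 8.36, 10.1 and 11.9 under water, a difference of -1.37 ± 0.11. Its signal was bright in all 12 samples and no paraquat sample came near the water range. AT4G05030, of a copper transport protein family, had 0.116, 0.179 and 0.238 under paraquat, against 0.386, 0.587 and 0.814 under water, a difference of -1.71 ± 0.24.

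Of the 6 genes placed with lipids, AT4G22490 and AT2G48130 belong to the lipid-transfer protein superfamily. AT4G22490 had 0.0483, 0.105 and 0.149 under paraquat, against 0.280, 0.359 and 0.462 under water, a difference of -1.87 ± 0.25. AT5G38360, of the alpha/beta hydrolase superfamily, had 0.0417, 0.0700 and 0.119 under paraquat, against 0.230, 0.260 and 0.283 under water, a difference of -1.86 ± 0.26. The paraquat levels of AT4G22490 and AT5G38360 were dim, with deposited means of 0.0951 and 0.0645. AT2G04540, a beta-ketoacyl synthase, the kind of enzyme that lengthens acyl chains, was brighter. It had 0.380, 0.439 and 0.466 under paraquat, against 0.994, 1.23 and 1.36 under water, a difference of -1.46 ± 0.09. AT2G48130 was at -1.28, AT2G46910 of the fibrillin family, proteins of plastid lipid bodies and membranes, at -1.06, and the hydrolase AT2G03140 at -1.001.

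Genes of glycosyl transfer and the cell wall numbered 5. AT3G57630, of the exostosin family of glycosyltransferases, had 0.302, 0.422 and 0.545 under paraquat, against 1.09, 1.12 and 1.23 under water, a difference of -1.49 ± 0.12. AT1G11730, of the galactosyltransferase family, had 0.0563, 0.0717 and 0.119 under paraquat, against 0.127, 0.222 and 0.265 under water, a difference of -1.39 ± 0.24. Its highest paraquat sample lay only 0.09 log2 units under its lowest water sample, the smallest gap of the 55, and its paraquat signal was dim. CSLA01, of the cellulose synthase-like A family that makes mannan backbones, had 0.152, 0.214 and 0.320 under paraquat, against 0.403, 0.469 and 0.615 under water, a difference of -1.17 ± 0.19. AT2G15440, of a polysaccharide biosynthesis family, was at -1.17 and AT4G37420, of another glycosyltransferase family, at -1.11.

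A further 6 genes were grouped under protein turnover, traffic and phosphorylation, with an acetyltransferase-family gene placed among them. TPP2, the exopeptidase tripeptidyl peptidase II, had 0.155, 0.257 and 0.298 under paraquat, against 0.532, 0.629 and 0.713 under water, a difference of -1.35 ± 0.16. AT1G21660, which carries the DnaJ domain of co-chaperones, had 0.973, 1.30 and 1.74 under paraquat, against 2.71, 3.27 and 3.90 under water, a difference of -1.35 ± 0.16. AT2G39000, of the GNAT family of acetyltransferases, had 0.131, 0.176 and 0.229 under paraquat, against 0.304, 0.450 and 0.501 under water, a difference of -1.28 ± 0.17. These genes share a median paraquat level near 0.4 times the water level. The kinase-family genes AT1G61590 and AT2G46850 were at -1.15 and -1.05, and AT4G01810, of the Sec23/Sec24 family of vesicle coat proteins, at -1.01.

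Stress gives its name to AILP1 and DI21, and AT4G31470 belongs to the superfamily of the pathogenesis-related protein PR-1. AILP1, of a family named for induction by aluminium, had 0.0921, 0.125 and 0.189 under paraquat, against 0.221, 0.481 and 0.636 under water, a difference of -1.70 ± 0.27. Its lowest water sample lay below the other water samples and 0.23 log2 units above the highest paraquat sample. AT4G31470 had 1.31, 1.89 and 2.88 under paraquat, against 4.55, 4.81 and 5.10 under water, a difference of -1.29 ± 0.18. DI21, a gene named for induction by drought, had 0.309, 0.364 and 0.475 under paraquat, against 0.664, 0.770 and 0.991 under water, a difference of -1.10 ± 0.13.

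The 17 genes with no stated role were at -1.68 to -1.01. AT2G06040 had 0.163, 0.232 and 0.393 under paraquat, against 0.544, 0.753 and 1.22 under water, a difference of -1.68 ± 0.28. AT4G30740 had 0.157, 0.235 and 0.312 under paraquat, against 0.611, 0.684 and 0.895 under water, a difference of -1.64 ± 0.17. AT4G35980 had 0.125, 0.174 and 0.295 under paraquat, against 0.468, 0.526 and 0.674 under water, a difference of -1.48 ± 0.20. In all 3 the water samples sat closer together than a factor of 3. AT5G27860, AT2G13690 and AT4G20690 were at -1.45, -1.44 and -1.43. Next came AT2G18920 at -1.36, AT4G27390 at -1.35, AT1G62250 and AT2G33180 at -1.33 and AT1G70350 at -1.29. AT4G33480 was at -1.23, AT2G48090 at -1.11, AT3G56290 at -1.07, AT1G13990 at -1.05, AT4G23110 at -1.03 and AT3G09050 at -1.01. AT1G62250 and AT2G33180 were bright, with deposited means of 4.50 and 2.98 under paraquat and 12.5 and 8.22 under water.

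The group medians were -1.34 for gene expression, -1.48 for redox, -1.54 for the 2 metal-related genes, -1.37 for lipids, -1.17 for glycosyl transfer, -1.22 for protein turnover, -1.29 for the stress-named genes and -1.33 for the genes with no stated role; the photosystem II group is a single gene. Differences between these medians were not tested.

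The level of the members was even over the samples of each group, with a small shift by sample number. Taking each gene relative to its own water mean, the median over the 55 genes lay between -1.38 and -1.21 in the 6 paraquat samples and between -0.17 and 0.13 in the 6 water samples. Over all 636 probes the same medians lay between 0.01 and 0.10 under paraquat and between -0.02 and 0.10 under water. In the water group, sample 3 or sample 4 held the lowest value in 15 and 16 of the 55 genes, and the highest value in 1 and 2. Water samples 1 and 2 held the highest value in 16 genes each (29.1% each), against 24.1% and 23.0% of all 636 probes. Members varied less among water samples, with a median SD of 0.23 on the log2 scale, than all 636 probes at 0.36. Among paraquat samples they varied more, with a median SD of 0.29 for the members and 0.24 for all 636 probes. The demand for groups without overlap favours a small spread in both groups, and the cause of these spreads was not tested.

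**Figure D2:**
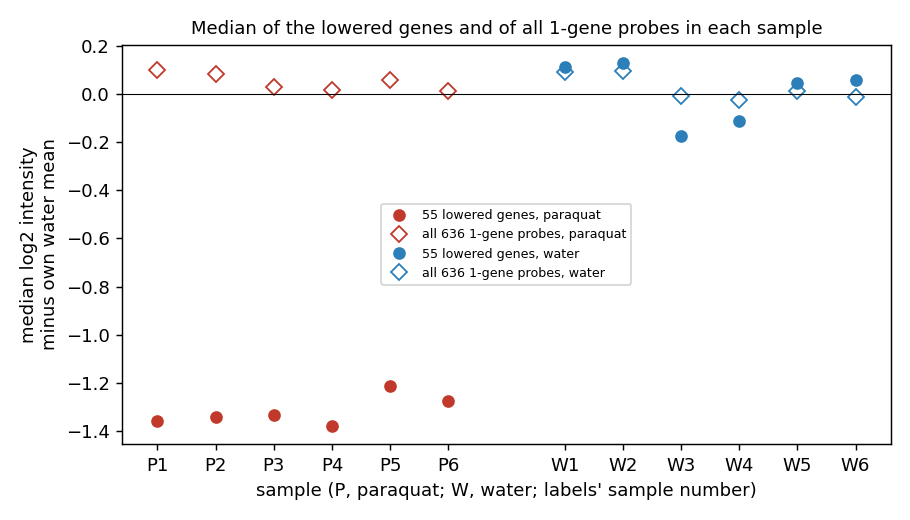
Median over genes of log2 intensity minus each gene's own water mean, in the paraquat samples P1 to P6 and the water samples W1 to W6; filled circles are the 55 lowered genes and open diamonds all 636 single-gene probes. The lowered genes sit between -1.38 and -1.21 in all paraquat samples, and in water samples 3 and 4 they sit lower than in the other water samples.

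In the water group the members' medians were alike within neighbouring sample numbers. They were 0.11 and 0.13 in samples 1 and 2, -0.17 and -0.11 in samples 3 and 4, and 0.05 and 0.06 in samples 5 and 6. Among paraquat samples this was less plain, and likeness over all probes was not measured. The difference was also taken within neighbouring numbers. The median over the members was -1.43 within numbers 1 and 2, -1.28 within numbers 3 and 4, and -1.33 within numbers 5 and 6. Over all 636 probes the same medians were 0.01, -0.03 and -0.01. That every member was lower within each of these follows from the rule and is no further support. With numbers 1 and 2 left out of both groups the same limits were met by 55 genes, 46 of them members.

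The number of a probe in the deposited table moved with the result. The files give no array coordinates, so probe numbers are all that is known here of where a probe lay. The differences over all probes repeat along the probe numbers. A scan of periods on these same differences, clipped at 2 log2 units in either direction, picked 288 as the best. It accounts for 22.2% of the clipped variance, against 4.95% for the best period that is not near 288 or a multiple of it. When the period of 288 is divided into 24 steps of 12 numbers, the median difference of a step over all probes ran from -0.77 to 0.61. Steps 23, 24 and 1 to 8, 10 in all, had medians under -0.3. They held 44 of the 55 members (80.0%), against 38.1% of the 636 probes. The mirrored rule, with every paraquat value above every water value and a difference of 1 or more, was met by 72 of 636 probes (11.3%), and 5 of those 72 lay in the same 10 steps. The limits on size and overlap were met by 20.7% of the single-gene probes in these steps and by 3.05% elsewhere. Both the low steps and the members were picked by the same contrast, so these shares are in part fixed by that choice. The part of this periodic effect in the low levels was not tested.

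**Figure D3:**
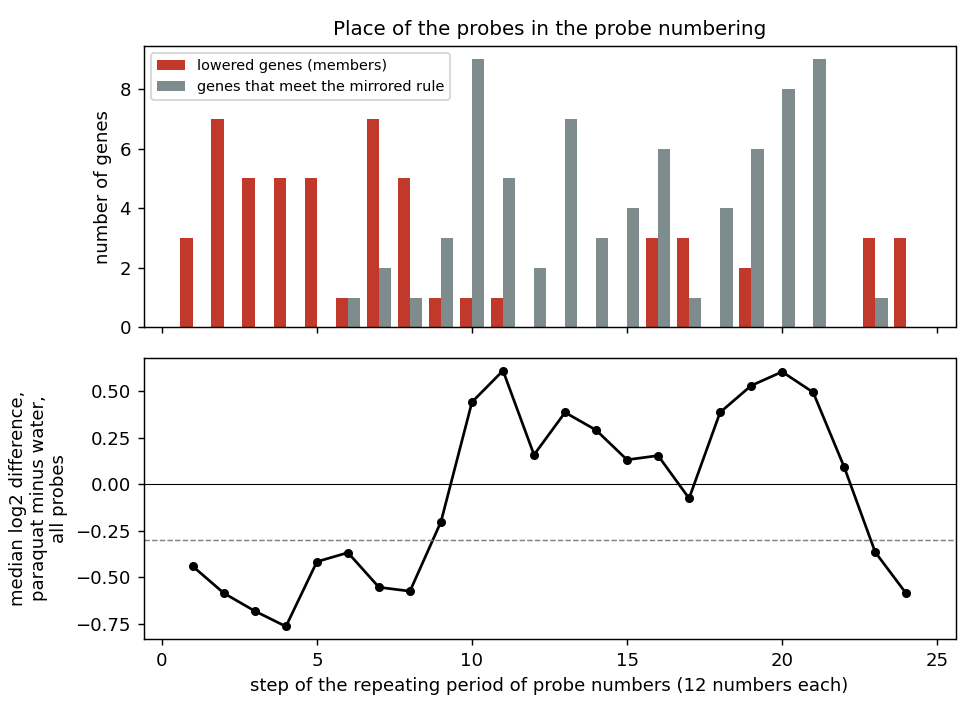
Upper panel, number of lowered genes and of genes that meet the mirrored rule in each of the 24 steps of the period of the probe numbers; lower panel, median log2 difference (paraquat minus water) of all probes in the step, with a dashed line at -0.3. The lowered genes gather in steps 1 to 8, 23 and 24, where all probes were lower on balance, and genes of the mirrored rule gather in steps 9 to 21.

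Each sample was therefore also centred by step, so that a difference is read relative to probes of the same step (called position centring). All 55 genes were still lower, with differences of -2.54 to -0.47 and a median of -0.92. In 45 of them the groups still did not overlap, against 19.0% of all 636 probes, and 21 also kept a difference of -1 or less, which 8.18% of the 636 did. These shares come from the contrast that chose the genes, and nothing is read from them. In the gene expression group 5 of 10 kept both limits, with AT1G03810 at -1.83, AT1G44830 at -1.43, AT4G26370 at -1.22, AT4G30680 at -1.15 and AT2G37510 at -1.05. Among the redox genes 4 of 5 kept them, with AT5G48440 at -1.77, AT1G02020 at -1.28, AT1G15140 at -1.09 and AT1G54500 at -1.02. None of the 5 genes of glycosyl transfer kept them, with centred differences of -0.95 to -0.65. AT5G38360 was at -2.54, AT4G05030 at -1.27, AT4G37230 at -1.24, AT4G22490 at -1.19 and AT2G39000 at -1.01. CUTA was at -0.91, TPP2 at -0.89, UBA1A at -0.81 and LAS at -0.62.

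The 11 members outside the low steps lay in steps with medians of -0.20 to 0.61. Centring subtracts the step's own shift, so it takes members of the low steps towards 0 and those of high steps away from it by construction. AILP1 and AT5G48440 lay in a step whose median was 0.53, and centring took AILP1 to -2.07. AT5G38360 lay in the step with the highest median, 0.61. AT3G56290 lay in a step at 0.44 and was at -1.61 after centring. AT5G27860 was at -1.66, AT2G33180 at -1.54, AT4G33480 at -1.18, DI21 at -0.98 and AT1G79220 at -0.95 after centring.

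**Figure D4:**
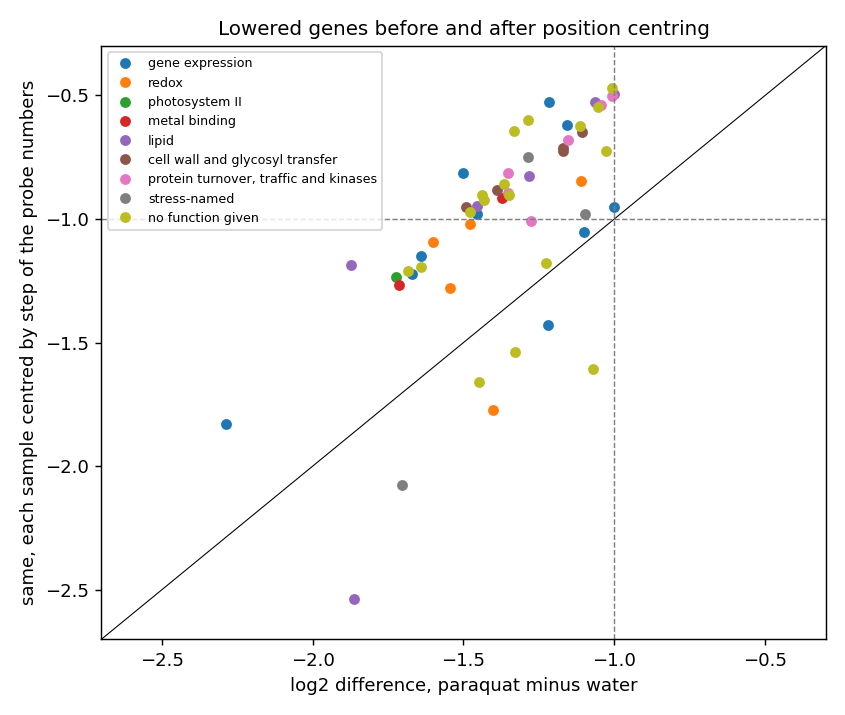
Log2 difference (paraquat minus water) of each of the 55 genes before (x axis) and after (y axis) centring each sample by step of the probe numbers, coloured by function group; the solid line marks equality and the dashed lines -1. Most genes lie above the line, closer to 0 after centring, and genes such as AT5G38360, AILP1 and AT5G48440 lie below it.

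A set of 15 members met the limits under every scaling, pseudocount, averaging, block and position setting tried on all samples. A member cannot fail the averaging or the block setting alone, since its groups do not overlap and its mean difference stays the same. The settings reuse the contrast that chose the genes, so nothing is read from the count of 15. The filter on dim probes, which leaves out the lowest 25% of mean deposited values, removed 12 members, and 5 of the 15 are among them (AT5G38360, AT4G26370, AT4G22490, AT4G30680 and AT4G37230). In gene expression the set of 15 held AT1G03810, AT4G26370, AT4G30680 and AT1G44830, and among the redox genes AT1G15140, AT1G02020, AT1G54500 and AT5G48440. The lipid-related AT4G22490 and AT5G38360, the metal-related AT4G05030 and the PsbO-family gene AT4G37230 were also among them. The last 3, AT2G06040, AT4G30740 and AT2G33180, have no stated role.

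The members were unevenly spread over the chromosomes that their locus numbers name. Chromosomes 2 and 4 held 15 and 18 of the 55 members (27.3% and 32.7%), against 18.8% and 18.1% of the single-gene probes. Chromosomes 3 and 5 held 4 each (7.27%), against 18.9% and 19.9%. Place in the numbering differed in the same way, since 63.9% of the probes of chromosome 2 and 71.3% of those of chromosome 4 lay in the 10 low steps, against 17.5% for chromosome 3 and 6.35% for chromosome 5. Within those 10 steps the limits on size and overlap, with the 7 genes set aside counted in, were met by 25.9% of 54 probes of chromosome 1, 18.4% of 76 of chromosome 2, 19.0% of 21 of chromosome 3, 22.0% of 82 of chromosome 4 and none of 8 of chromosome 5. Gene neighbours were also seen: 10 of 55 members (18.2%) had another member within 10 protein-coding genes, against 29 of the 579 other single-gene probes (5.01%). All 10 of these members lay in the 10 low steps, whereas the 579 probes were not limited to those steps or to the same chromosomes. The 2 shares are thus not a like comparison, and clustering along the chromosomes was not tested. The pairs were AT4G20820 with TPP2, AT2G48090 with AT2G48130, AT2G46850 with AT2G46910, AT4G30680 with AT4G30740, and AT1G11730 with AT1G11800. In the numbering, 5 pairs of members had probe numbers at most 2 apart, among them TPP2 with CUTA and AT1G54500 with AT2G48130. The matching share over all single-gene probes was not taken. Members gather in the 10 low steps, which brings their numbers together, so nothing is read from this count.

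For 6 members another probe lists the gene together with other genes, so its signal may come from relatives. The probe shared by AT1G03810 was at -0.73 (-0.61 after position centring), without overlap between the groups, and that of AT2G46910 at -0.81 (-0.32 centred), with overlap. Those of AILP1 and AT3G46950 were at -0.22 and 0.05 (-0.93 and 0.73 centred), and that of AT2G13690 was at 1.12 (0.53 centred). The probe shared by AT2G37510 gave no usable difference, since zeros set its level in both groups.

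At the limits of the rule, AT1G79220 and AT2G03140 (-1.001 each), AT3G09050 and AT4G01810 (-1.01 each) and AT4G23110 (-1.03) were just inside. By size AT2G36480 (-0.996), AT4G33500 and AT2G03390 (-0.99 each), GH9B11 (-0.98) and AT1G73090 (-0.97) were just outside, among 67 probes without overlap whose differences were smaller. A further 12 probes had a large enough difference but overlapping groups. Nearest among these was AT4G32340 at -1.52, whose overlap was 0.0021 log2 units, followed by AT5G19210 (-1.31), GH9B8 (-1.21), AT5G39410 (-1.04) and AT2G27680 (-1.55).

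Other genes of plastid pathways were read from 10 lists of 146 genes, of which 12 had a probe of their own on 6 lists. AT4G37230 and AT4G26370 are members. Of the other 10, limma called 4 lower and 1 higher at an adjusted p under 0.05, and 5 did not pass; over all 3439 probes it called 28.5% lower and 24.0% higher. AT1G76450, a PsbP-domain protein that was listed at 0 in a paraquat sample, was at -3.46 (limma, adjusted p = 0.0274, and 0.051 with neighbouring numbers averaged). The size of its difference rests in part on the low value that replaced the 0, so it is not set beside those of the members. The Calvin cycle kinase PRK was at -1.24 (limma, adjusted p = 0.000675) and the ferredoxin-thioredoxin reductase subunit AT2G04700 at -1.38 (limma, adjusted p = 5.11e-05). The NADPH-dependent thioredoxin reductase of plastids, NTRC, was at -0.47 (limma, adjusted p = 0.0181; 0.0645 with the sample number as a block, 0.522 with values as deposited and 0.916 after position centring). The plastid peroxiredoxin gene AT3G52960 was the gene called higher, at 2.43 (limma, adjusted p = 2.56e-06). Of the 5 that did not pass, SBPASE of the Calvin cycle was at 0.29 (limma, adjusted p = 0.195; 0.012 with values as deposited and 0.00215 after position centring), and the acyl-ACP thioesterase gene FATB at -0.55 (limma, adjusted p = 0.0663; 0.0145 with median centring). None of the 13 isoprenoid, 9 starch, 6 shikimate or 10 protein import genes had a probe of its own, so these pathways were not measured here.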

How the data were processed

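The table of 12 columns holds array intensity values that were deposited by the authors on a linear scale; their scanner, background correction and scaling are not given in the sources used here. Means per column were 0.944 to 1.07, and 108 to 148 of 3439 probes were at 0 in a column. Deposited medians were 0.563 to 0.635 under paraquat and 0.443 to 0.491 under water.

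Each zero was replaced by its column's lowest positive value, columns were quantile normalised and log2 was taken. Gene names came from the platform annotation (692 with 1 gene, 870 with several, 1877 not listed), and 690 of the 692 matched the RefSeq table of TAIR10.1. No sequence or coordinate is given, because the files name no genome build and hold no sequences. Background counts came from limma 3.58.1 in R 4.3.3, two-sided, with Benjamini-Hochberg adjustment over all 3439 probes, without a block; limma was tested on simulated data. Deviations of samples with equal numbers correlated at 0.337 to 0.505, so the sample number as a block was run as an alternative; that pairing rests on the data, not the labels.

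Every member is named; the 3 with the largest falls per function group and the 10 largest overall are given by sample. Members and lists were chosen with earlier results of these data known. Figures used matplotlib 3.10.9.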

Additional observations from a re-analysis of the deposited data

Results flagged for a closer look

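In 4 of 110 sets of 6 samples of the members, the highest or lowest sample stood off from the rest. This was judged by its gap over the whole range, both on the log2 scale (Dixon's test at the 95% level), and chance gives about 5.5. The ratios below are of log2 values, while the intensities beside them are on the linear scale. TPP2 had 0.155 in paraquat sample 1, with the next lowest paraquat sample at 0.238 (ratio 0.658). AT2G48130 had 0.141 in paraquat sample 3, with the next lowest at 0.218 (ratio 0.653). AT1G44830 had its highest paraquat value in sample 3, 1.04, with the next at 0.860 (ratio 0.668). AT2G39000 had 0.304 in water sample 3, with the next lowest water sample at 0.419 (ratio 0.645).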

How the results depend on the processing

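No member changed direction under another scaling or position centring, but the members' starting differences of -1.001 or lower left little room for a change. With the pseudocount or the replicate block, or where samples were left out or averaged, the choice of the members fixes the direction. A kept direction is thus no sign of stability under any of these settings. Size and membership depended on the scaling. The limits were met by 36 genes with values as deposited, by 31 with a pseudocount of 0.1, by 102 with a size limit of -0.58 and by 13 with a limit of -1.5. After position centring 46 genes met them, of which 21 were members, and 51 when averaging of neighbours and the pair as a replicate block were added. The median difference of the members was -1.56 with median centring, -1.06 with the pseudocount, and -0.92 after position centring with and without averaging and block. With the replicate block alone, 64 genes were lower in all 6 numbered pairs with a mean difference of -1 or less, the median over members of each gene's median pair difference was -1.32 (a median of 6 pairs, not a difference of means), and 1051 probes were called lower and 913 higher, against 979 and 826 without it; beyond NTRC it changed no call named here. Averaging neighbours gave 668 probes called lower and 492 higher, and joined with position centring and the replicate block 508 lower and 418 higher. With values as deposited 738 were lower and 1111 higher; the median of all probes was then 0.19, against -0.04 after quantile normalisation and -0.16 with median centring. Leaving out a sample gave 50 to 61 genes that met the limits, a members' median of -1.38 to -1.30, and 928 to 996 probes lower and 752 to 817 higher. The causes were not tested. Signal limits AT4G22490, AT5G38360, AT1G11730 and AT1G70350, whose paraquat means were dim.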

Other observations

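After each sample was centred by step of the probe numbers, 25 single-gene probes outside the 55 met the same limits, none of them in the 10 low steps; they were found after the values were seen. Before centring their differences were -1.25 to -0.37, and in 16 of them the groups did not overlap. The largest centred differences were those of AT3G08000 (-1.57 centred, -0.86 before), AT5G03900 (-1.53 centred, -0.85 before), IYO (-1.52 centred, -1.25 before) and AT3G45770 (-1.51 centred, -0.99 before). IYO is known as minIYO, a regulator of RNA polymerase II elongation that is needed for cell differentiation.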
